A study of Mus musculus with 22 samples.

Results

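The 35 genes described here belong to the response of cells to low oxygen. They are 4 subunits and sensors of the hypoxia-inducible factor (HIF) pathway, 17 enzymes and transporters of glycolysis, and 14 other genes that HIF is known to switch on. They were taken from a fixed list of names, and all 35 were found among the 56691 genes of the series in CD11b+ cells pulled from the brains of neonatal CF-1 mice, an outbred strain. In the model of hypoxic-ischemic encephalopathy (HIE), the dam received the bacterial endotoxin lipopolysaccharide late in gestation and the pup was exposed to a short severe hypoxia on P6, while control litters received saline and room air. At P7 there were 4 HIE animals of the litters N5 and N8 and 4 controls of the litters P6H63 and P6H55. At P14 there were 4 HIE animals (P4H1, P6H12), 4 animals of a group labelled hypoxia (P6H7, P6H9) and 4 controls (P4H4, P6H8). The prefix of an animal's name is called its litter here, although the labels do not state that it is one.

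Several features of the design bear on every value below. Each litter holds a single treatment, so litter and treatment cannot be told apart. The P7 and P14 libraries came in separate deposited tables, so age and table cannot be told apart either. The age labels of the P7 control animals read 8, 9, 10 and 11 days, 1 animal each, whereas the collection notes give P7 for all. All 4 P7 HIE animals are labelled male, against 2 males and 2 females among the P7 controls. What the hypoxia group received beyond its name was not given in the sources used here, and the P14 preparation is assumed to be that described for P7. Library totals ran from 70191584 to 83469067 counts at P7 and from 29751540 to 46404123 at P14, and 2 P14 HIE animals had 2 libraries each, which were summed to leave 20 animals. No member was near the limit of detection, the lowest being Egln3 with 30 counts in 1 hypoxia animal.

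HIF is a pair of proteins, an oxygen-sensitive alpha subunit (Hif1a or Epas1, the latter also called HIF-2 alpha) and a stable beta subunit. With oxygen present, prolyl hydroxylases such as Egln1 and Egln3 mark the alpha subunit for destruction. When oxygen falls the subunit escapes, binds the core letters ACGTG or GCGTG in DNA, and raises genes for glucose uptake, glycolysis, vessel growth and mitophagy. The control is mainly on the protein, so the RNA of Hif1a or Epas1 is not a readout of HIF activity. In the brain, Hif1a is used by most cells, while Epas1 is especially abundant in endothelial cells. Microglia, the resident macrophages of the brain, use both oxidative metabolism and glycolysis and shift towards glycolysis when activated.

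The proximal promoters show how common the HIF core is among these genes. Windows ran from 250 bases before to 50 after the start of each gene's canonical transcript in GENCODE, on GRCm39. The letters ACGTG or GCGTG, on either strand, were present in 27 of 35 members (77.1%), against 10367 of 21630 protein-coding genes (47.9%). Windows with 3 or more matches were found in 11 members (31.4%) and in 10.8% of all windows. Such letters are a description of the window and not a measured binding site, and CACGTG is read on both strands and so counts as 2 matches. The protein-coding genes were not matched to the members in base content or RNA level, whose part in these shares was not tested. Printed below are the windows of the 3 members with a match that had the smallest unadjusted p between P7 HIE and control, followed by that of Ldha, picked afterwards because its 8 matches were the most of any member. Capitals mark the matches and each sequence runs 5′ to 3′ on the gene's own strand.

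Epas1 promoter, chr17:87060873-87061172, plus strand: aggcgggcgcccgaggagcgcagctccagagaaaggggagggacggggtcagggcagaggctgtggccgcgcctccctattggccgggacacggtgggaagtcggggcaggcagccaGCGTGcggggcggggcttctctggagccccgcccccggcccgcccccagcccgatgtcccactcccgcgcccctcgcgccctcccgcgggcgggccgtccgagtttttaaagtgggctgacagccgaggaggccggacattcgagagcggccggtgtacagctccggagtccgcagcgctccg
Adm promoter, chr7:110226608-110226907, plus strand: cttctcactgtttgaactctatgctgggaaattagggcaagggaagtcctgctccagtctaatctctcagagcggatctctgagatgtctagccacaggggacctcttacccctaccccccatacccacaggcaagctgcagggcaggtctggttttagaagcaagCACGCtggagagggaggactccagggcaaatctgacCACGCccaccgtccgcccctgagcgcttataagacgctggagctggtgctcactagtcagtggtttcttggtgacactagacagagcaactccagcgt
Bhlhe40 promoter, chr6:108636376-108636675, plus strand: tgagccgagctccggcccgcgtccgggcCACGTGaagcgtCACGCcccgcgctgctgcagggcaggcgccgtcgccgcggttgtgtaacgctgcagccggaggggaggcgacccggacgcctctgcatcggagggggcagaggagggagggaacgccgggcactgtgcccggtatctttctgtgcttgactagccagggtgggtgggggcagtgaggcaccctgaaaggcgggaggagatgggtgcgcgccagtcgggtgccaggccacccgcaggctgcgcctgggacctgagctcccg
Ldha promoter, chr7:46495013-46495312, plus strand: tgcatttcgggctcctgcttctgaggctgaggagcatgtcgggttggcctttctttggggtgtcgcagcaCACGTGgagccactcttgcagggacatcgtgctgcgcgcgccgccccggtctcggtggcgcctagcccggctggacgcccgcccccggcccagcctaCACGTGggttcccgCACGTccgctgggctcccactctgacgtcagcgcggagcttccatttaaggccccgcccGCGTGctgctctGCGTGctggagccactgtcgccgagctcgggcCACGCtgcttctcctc

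The Epas1 window holds 1 match, the Adm window 2 and the Bhlhe40 window 3. In Ldha the 8 matches fall in 6 separate stretches on both sides of the start.

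The cell content of the P7 control libraries has to be given before any member, because it moved with nearly every comparison at P7. The summed level of 11 microglial markers was 2100 and 1370 CPM in the P6H63 controls (CPM, counts scaled to library size and composition), against 15100 and 13300 in the P6H55 controls and 17100 to 19400 in the HIE animals. Border-associated macrophage markers (7 genes) were at 506 and 391 CPM in P6H63, 3420 and 2480 in P6H55 and 2240 to 3900 in HIE. Other cell types ran the opposite way. Endothelial markers (9 genes) summed to 2180 and 1770 CPM in P6H63, 894 and 894 in P6H55 and 627 to 838 in HIE, and astrocyte markers (10 genes) to 4640 and 5730, 1670 and 2320, and 1550 to 2000. Choroid plexus markers (8 genes) lay between 3370 and 8850 CPM in the 4 controls and between 1140 and 2140 in the HIE animals. Immediate early genes that cell dissociation is known to raise (10 genes) were at 5210 and 6400 CPM in P6H63, 16500 to 17200 in P6H55 and 17700 to 20000 in HIE. Mural markers (6 genes) ran from 1300 to 1510 CPM in P6H63, 626 to 650 in P6H55 and 467 to 615 in HIE, neuronal markers (10 genes) from 188 to 271, 86.2 to 118 and 91.1 to 138, and oligodendrocyte-lineage markers (12 genes) from 592 to 819, 457 to 486 and 380 to 523. Neutrophil and monocyte markers (8 genes) stayed at 12.3 to 102 CPM and erythroid markers (7 genes) at 17.1 to 46.2 in all P7 libraries. None of the microglial, endothelial, astrocyte or choroid plexus markers was at 0 in any library. Markers of the labelled cells were thus low in the P6H63 libraries, and each P7 result is given against the 2 control litters separately as well as together. In bulk RNA, fewer cells of a type and less RNA per cell cannot be told apart.

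**Figure D1:**
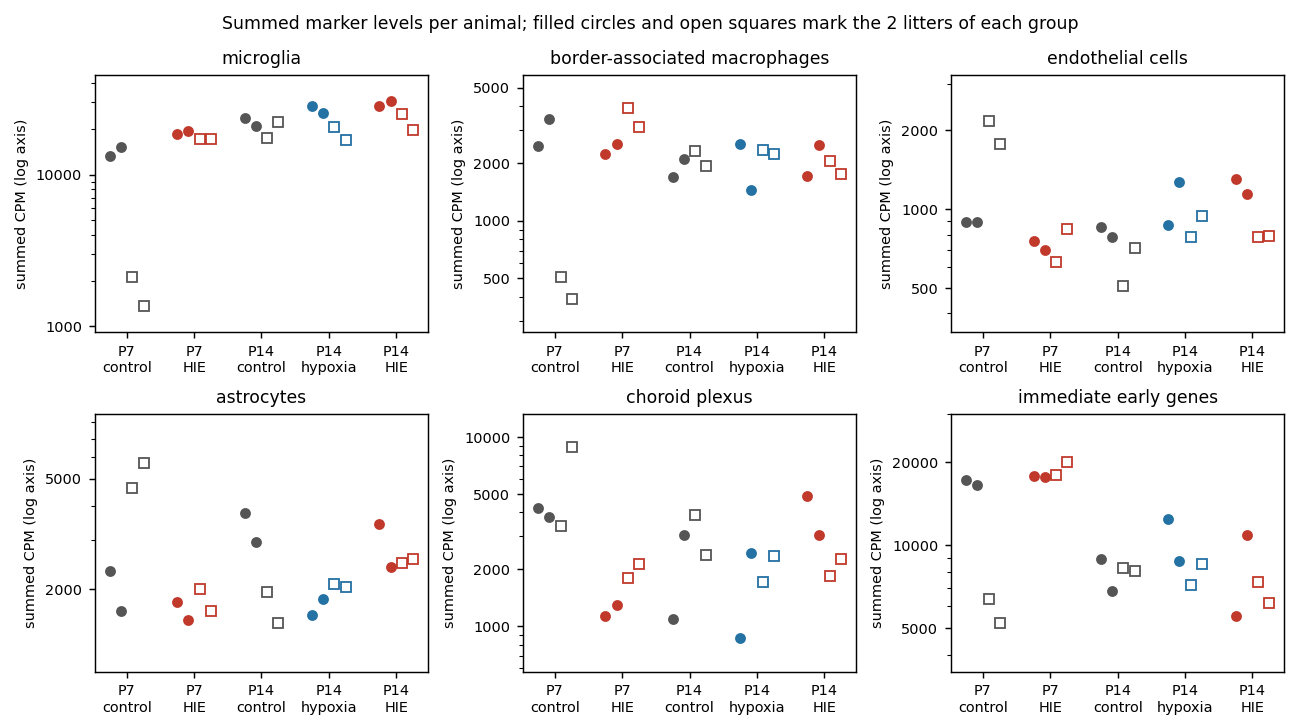
Summed CPM of 6 marker lists (log axis) in each of the 20 animals, by group, with a filled circle or an open square for the 2 litters of a group. The 2 P6H63 controls (squares at P7) sit at 2100 and 1370 CPM for microglia, below every other animal, and above every other animal for endothelial cells and astrocytes.

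The first question was whether the hypoxia program was raised in CD11b+ cells 1 day after the exposure. It was not detected: by edgeR's quasi-likelihood test with Benjamini-Hochberg adjustment over 22517 genes, none of the 35 members passed an adjusted p of 0.05 between P7 HIE and control (15 of all genes did, 0.0666%). At an unadjusted p under 0.05 there were 4 members higher (11.4%, against 7.89% of all genes) and 10 lower (28.6%, against 19.4%). The median log2 fold change of the members was 0.12, against -0.08 over all genes tested. DESeq2, a different count test run on the same genes, called 9 members and 3024 of all genes (13.4%). Of the 9, Adm, Ankrd37, Bhlhe40, Epas1, Vegfa and Pfkp were lower and Gpi1, P4ha1 and Pfkfb3 higher. Leaving out a single control of the P6H55 litter (replicate 3) took edgeR's count of members from 0 to 14, and that of all genes from 15 to 5589 (24.2%).

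Among the HIF subunits and sensors, Hif1a was at 207, 213, 201 and 236 CPM in HIE, at 176 and 218 in P6H55 and at 147 and 160 in P6H63. The groups overlapped, and the log2 fold change against all 4 controls was 0.28 ± 0.14 (SE, edgeR adjusted p = 0.218). Epas1 was at 257, 246, 217 and 285 CPM in HIE, 353 and 323 in P6H55 and 719 and 659 in P6H63. Every HIE animal lay below every control, and the P6H63 pair stood at the top, as its endothelial markers did. The log2 fold change of Epas1 was -1.04 ± 0.28 (SE, edgeR adjusted p = 0.15). Egln1, the main prolyl hydroxylase, was at 56.1 to 62.6 CPM in HIE and at 52.9 to 66.9 in the controls, and Egln3 at 7.46 to 10.4 in HIE, 8.45 and 9.38 in P6H55 and 20 and 20.6 in P6H63.

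Of the HIF targets outside glycolysis, several stood lower in HIE than in the controls as a whole. Vegfa, the main growth factor of vessels, was at 15.5, 14.2, 14.8 and 16.8 CPM in HIE, at 24.1 and 16.3 in P6H55 and at 34.0 and 43.2 in P6H63. HIE and control overlapped only through 1 P6H55 animal (log2 fold change -0.95 ± 0.27, SE, edgeR adjusted p = 0.15). Adm, which encodes the vessel-widening peptide adrenomedullin, was at 1.26, 1.40, 1.95 and 1.46 CPM in HIE, at 2.25 and 2.18 in P6H55 and at 5.19 and 4.5 in P6H63, with no overlap. Bhlhe40, a transcriptional repressor of the clock and of metabolism, read 30, 30.3, 33 and 33.6 CPM in HIE, 42.2 and 35.9 in P6H55 and 83.4 and 88.7 in P6H63, again with no overlap. Ddit4, an inhibitor of the growth kinase mTOR, was at 22.9, 17.3, 16.7 and 19.2 CPM in HIE, at 25.6 and 18.4 in P6H55 and at 42.5 and 54.6 in P6H63, and the groups overlapped. Ndrg1, a stress protein also made by myelinating glia, read 18.7, 16.1, 25.2 and 21.0 CPM in HIE, 19.4 and 19.7 in P6H55 and 62.5 and 72.0 in P6H63. The gap was thus with P6H63 alone.

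Fewer members of this role stood higher. P4ha1, a collagen prolyl hydroxylase, was at 109, 117, 124 and 125 CPM in HIE, at 85.0 and 101 in P6H55 and at 57.6 and 54.8 in P6H63, with every HIE animal above every control (log2 fold change 0.66 ± 0.20, SE, edgeR adjusted p = 0.15). Bnip3, a receptor for mitophagy, was at 38.9, 39.2, 43.1 and 47.3 CPM in HIE, at 33.2 and 42.1 in P6H55 and at 23.3 and 28.5 in P6H63. Its groups overlapped through 1 P6H55 animal (log2 fold change 0.39 ± 0.18, SE, edgeR adjusted p = 0.192). The related receptor Bnip3l (119 to 139 CPM in HIE, 111 to 127 in controls), the histone demethylase Kdm3a (100 to 113 and 90.5 to 119) and the cytokine Mif (56.1 to 77.1 and 50.1 to 62.6) overlapped throughout. The hydroxylase P4ha2 was at 2.16 to 3.40 CPM in HIE and 2.59 to 6.82 in the controls, and the carbonic anhydrase Car9, which exports acid, at 6.46 to 8.38 and 5.39 to 18. The low member Ankrd37 was at 1.65 to 2.86 and 2.57 to 4.37 CPM, and the mitochondrial protein Higd1a at 11.3 to 13 and 12.1 to 19.4.

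Of the glycolytic genes, those for glucose uptake and its first steps are given before the later enzymes. Slc2a1, the GLUT1 glucose transporter of the blood-brain barrier, was at 174, 175, 152 and 185 CPM in HIE, at 184 and 209 in P6H55 and at 398 and 364 in P6H63. HIE and P6H55 just overlapped, and P6H63 stood apart from both (-0.76 ± 0.25 on the log2 scale over all controls, SE, edgeR adjusted p = 0.15). Hk2, the inducible hexokinase, was at 231, 243, 234 and 247 CPM in HIE, at 186 and 219 in P6H55 and at 50.5 and 39.2 in P6H63. Pfkfb3, whose product drives phosphofructokinase, was at 232, 259, 206 and 226 CPM in HIE, at 132 and 189 in P6H55 and at 75.3 and 57.3 in P6H63. For both Hk2 and Pfkfb3 every HIE animal exceeded every control, by log2 fold changes of 0.94 ± 0.53 and 1.01 ± 0.35 (SE, edgeR adjusted p = 0.262 and 0.151). Hk1, the housekeeping hexokinase, ran the other way with P6H63, at 52.6 to 56.9 CPM in HIE, 51.2 and 51.5 in P6H55 and 84.5 and 98.5 in P6H63.

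Of the later enzymes, Pgk1, which makes the first ATP of the pathway, was at 150, 149, 165 and 183 CPM in HIE, at 119 and 143 in P6H55 and at 150 and 178 in P6H63. Ldha, which turns pyruvate to lactate, was at 202, 205, 234 and 275 CPM in HIE, at 175 and 221 in P6H55 and at 202 and 192 in P6H63. Both overlapped between groups, with log2 fold changes of 0.12 ± 0.14 and 0.20 ± 0.13 (SE, edgeR adjusted p = 0.559 and 0.319). Aldoa, Tpi1, Gapdh, Pgam1, Eno1, Pkm and Pfkl also overlapped, with log2 fold changes from 0.00 to 0.23. Gpi1, the second enzyme of the pathway, was at 273 to 290 CPM in every HIE animal and at 220 to 264 in every control, a small gap without overlap (0.26 ± 0.10, SE, edgeR adjusted p = 0.16). Slc16a3, which exports lactate, was at 38.4 to 65.5 CPM in HIE, 26.4 and 41.5 in P6H55 and 16.9 and 8.31 in P6H63. Pfkp was at 28.5 to 40.7 CPM in HIE and 38.8 to 62.1 in the controls, and Pdk1, which keeps pyruvate out of mitochondria, at 43.3 to 74.7 and 38.3 to 66.8. Several members (the enzymes Gapdh, Ldha, Pgk1, Tpi1, Eno1, Pkm and Aldoa and the cytokine Mif among them) have processed pseudogene copies, between which the counting divides reads, so their levels are uncertain to that extent.

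In all, 4 members had every HIE animal above every control (Hk2, Gpi1, Pfkfb3 and P4ha1; 11.4% of the members, against 9.20% of all genes) and 3 had every one below (Epas1, Adm and Bhlhe40; 8.57%, against 7.86%). These shares are near those of all genes.

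**Figure D2:**
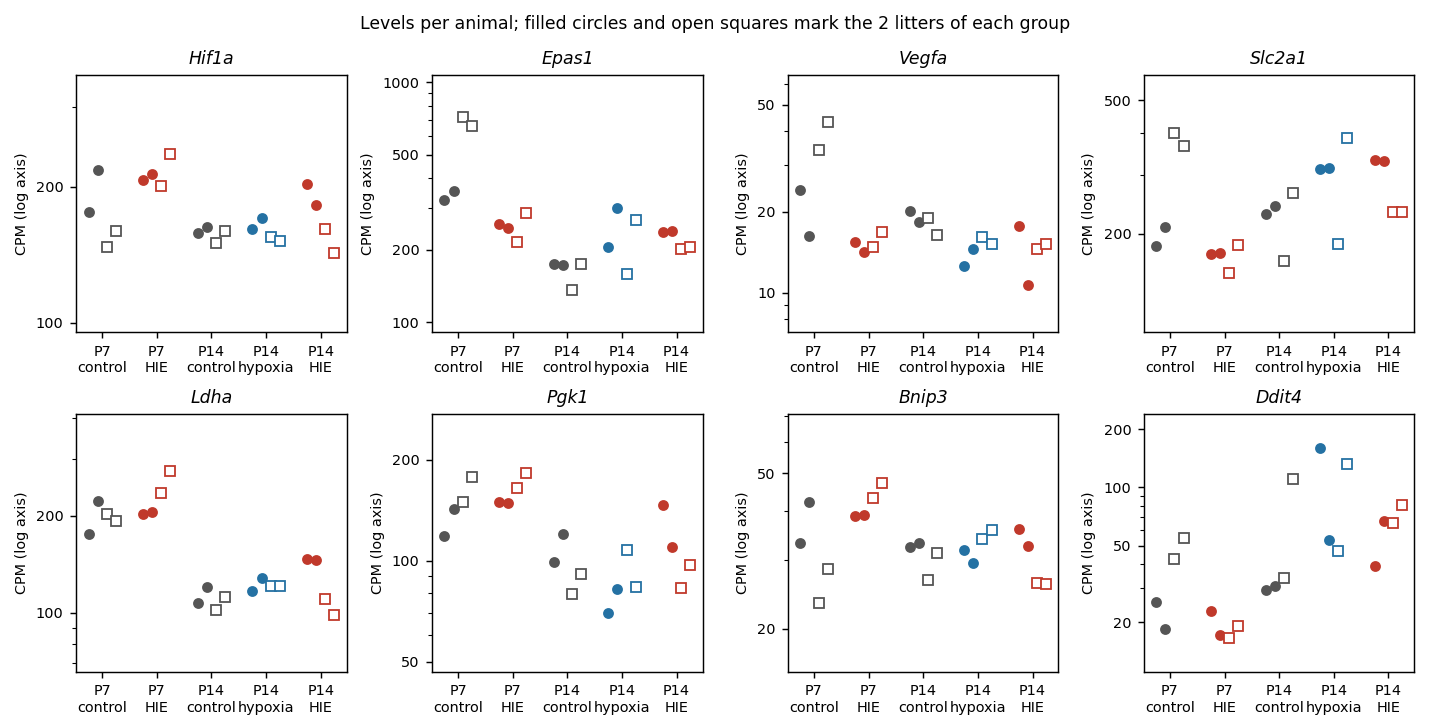
CPM (log axis) of 8 members in each of the 20 animals, by group, with a filled circle or an open square for the 2 litters of a group. At P7 the P6H63 controls (open squares) stand apart for Epas1 (719 and 659 CPM), Slc2a1 (398 and 364) and Ddit4 (42.5 and 54.6), while Ldha and Pgk1 overlap between groups.

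Set against the P6H63 litter alone, 22 of 35 members passed edgeR's test (62.9%), as did 58.5% of all 23781 genes, so the members moved about as often as any gene. Of these 22, 8 were higher and 14 lower in HIE (22.9% and 40% of the members, against 27.7% and 30.8% of all genes). The median was 0.01 (-0.02 over all genes). The controls here are 2 animals of 1 litter, so the p-values hold no spread between control litters. The 8 members with the smallest p were Hk2 (log2 fold change 2.44 ± 0.12, SE), Bhlhe40 (-1.41 ± 0.07), P4ha1 (1.11 ± 0.08), Epas1 (-1.42 ± 0.11), Pfkfb3 (1.83 ± 0.14), Slc2a1 (-1.12 ± 0.09), Vegfa (-1.30 ± 0.11) and Ndrg1 (-1.70 ± 0.16), with edgeR adjusted p from 9.8e-06 to 8.51e-05. The other targets gave 3 higher and 9 lower of 14, the glycolysis genes 4 higher and 3 lower of 17, and the HIF subunits and sensors 1 higher (Hif1a) and 2 lower of 4. Gpi1 and Kdm3a were called higher here by 0.36 and 0.24, directions that turned to -0.01 and -0.13 when libraries were scaled by total count only, a scaling that moved the median of all genes from -0.02 to -0.39. All 11 microglial markers were called higher and all 9 endothelial, 6 mural and 8 choroid plexus markers lower in the same comparison; the part of this difference in cell content in the members' values was not tested.

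Against the P6H55 litter no member passed edgeR's test (26 of 23274 genes did, 0.112%). There were 6 higher and 4 lower at an unadjusted p under 0.05 (17.1% and 11.4%, against 7.58% and 8.91% of all genes). DESeq2 called 3 members, Epas1 lower and P4ha1 and Pfkfb3 higher, and 978 of all genes (4.2%). A fit without P6H55 control replicate 3 rests on 1 control animal, and edgeR's counts of members and of all genes both rose in it. The sizes were small: Epas1 -0.44 ± 0.11, Vegfa -0.41 ± 0.15, Bhlhe40 -0.31 ± 0.09, P4ha1 0.34 ± 0.09, Pfkfb3 0.51 ± 0.15 and Hk2 0.23 ± 0.08 (log2 fold change ± SE, edgeR adjusted p from 0.195 to 0.267). Ndrg1 (0.04 ± 0.17), Egln3 (0.01 ± 0.17) and P4ha2 (0.00 ± 0.21), which had been lower against P6H63, showed values near 0 here. Of the glycolysis genes, 14 of 17 had a positive fold change (82.4%, against 46.5% of all genes) with a median of 0.23 (-0.02 over all genes), a lean to which no test was applied. At P14 the count was again 14 of 17 for HIE over control (52.1% of all genes, median 0.07). For P14 hypoxia over control it was 4 of 17 (47.4% of all genes). Against P6H55, 7 of the 17 had every HIE animal above both controls. Over all 35 members 8 were above both controls (22.9%, against 13.6% of all genes) and 3 below both (8.57%, against 12.1%). With 2 controls the exact permutation test of a single gene cannot go below p = 0.133. Markers moved here too. All 11 microglial markers had a positive fold change (median 0.34), 8 of them with every HIE animal above both controls, and their sums did not overlap (17100 to 19400 CPM against 13300 and 15100). Choroid plexus markers were lower in every HIE animal for 8 of 8 genes and endothelial markers for 6 of 9. The part of these marker differences in the members' values was not tested.

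**Figure D3:**
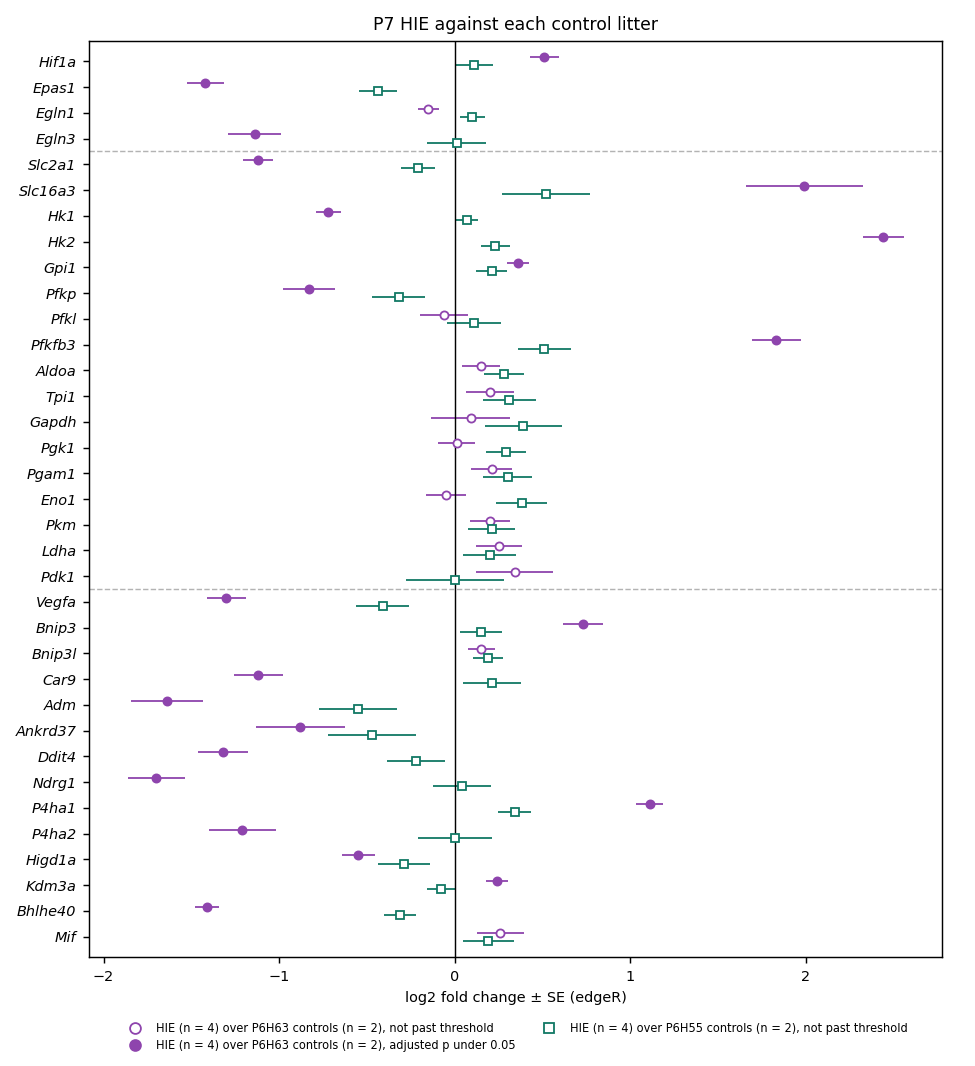
Log2 fold change ± SE (edgeR) of the 35 members in 4 P7 HIE animals over the 2 P6H63 controls (circles) and the 2 P6H55 controls (squares), grouped by role between the dashed lines. Filled symbols passed an adjusted p of 0.05, which 22 members did against P6H63 and none against P6H55, where all values lie between -0.55 and 0.52.

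Related enzymes were then compared per kilobase of transcript, as a share of their family in each animal, with families set after the levels had been seen. Hk2 made up 37.2 to 38.2% of the hexokinase RNA (Hk1, Hk2 and Hk3, levels per length) in P7 HIE and 38.5 to 39.9% in P6H55, but 15.9 to 20% in P6H63, where Hk1 made up 61.0 to 72.9%. At P14 the share of Hk2 was 33.6 to 46.6% over the 12 animals. Hif1a was 38.3 to 41.4% of the HIF alpha subunit RNA in P7 HIE, 29.6 to 32.2% in P6H55 and 14.0 to 16.2% in P6H63, the rest being nearly all Epas1. Ldha was 79.5 to 86.0% of Ldha plus Ldhb in HIE, 67.8 to 72.9% in P6H55 and 60.2 to 71.3% in P6H63. HIE thus lay above both control litters for Ldha, as it did for Hif1a. The microglial marker sums also lay above both litters in HIE, and their part in these shares was not tested. Ldhb, the form that favours pyruvate, had values of -1 ± 0.19 against all controls and -0.85 ± 0.17 against P6H55 (log2 fold change ± SE, edgeR adjusted p = 0.15 and 0.163).

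The wider lists of the pathway gave no call at P7 against all controls. Of 13 further HIF regulators, 27 other glycolysis genes and 29 further HIF targets, none passed. The genes with the smallest p were Pfkfb4 (0.70 ± 0.25), Pim1 (0.90 ± 0.33) and Pdk3 (0.27 ± 0.10) upwards, and Ldhb, Rora (-0.79 ± 0.20) and Tfrc, the transferrin receptor (-0.94 ± 0.26), downwards (edgeR adjusted p from 0.15 to 0.157). Against P6H55 they included Pim1 (0.41 ± 0.11) and Slc16a7 (0.57 ± 0.16) upwards, and Slc2a5, the fructose transporter of microglia (-2.21 ± 0.31, edgeR adjusted p = 0.0836), Ldhb and Rora (-0.41 ± 0.08) downwards, none passing. Slc2a5 ran from 7.25 to 17.7 CPM in HIE, from 60.1 to 72.3 in P6H55 and from 5.62 to 12.3 in P6H63. Against P6H63, 11 of 13, 17 of 27 and 24 of 29 were called (84.6%, 63% and 82.8%), where 58.5% of all genes were. Slc16a7 (2.39 ± 0.11), Hmox1 (2.09 ± 0.12) and Pfkfb4 (1.28 ± 0.08) led upwards and Ppp1r3c (-1.88 ± 0.11), Plod2 (-1.43 ± 0.09) and Loxl2 (-1.72 ± 0.12) downwards.

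The second question was whether anything remained at P14. Between P14 HIE and control no member passed (edgeR, 1 of 20934 genes did, 0.00478%), with 1 higher and 2 lower at an unadjusted p under 0.05 (2.86% and 5.71%, against 3.35% and 6.53% of all genes). The median of the members was 0.05 (0.01 over all genes), and every fold change lay between -0.36 and 0.41 on the log2 scale. Epas1 was the top member. It was at 237, 241, 202 and 206 CPM in HIE and at 175, 173, 136 and 175 in the controls, so every HIE animal was above every control. The log2 fold change was 0.41 ± 0.11 (SE), with an adjusted p of 0.261 by edgeR. DESeq2 called Epas1 as its 1 member, and 494 of 20934 genes (2.36%). Epas1 was the 1 member above all controls (2.86%, against 2.82% of all genes), and none was below (2.67% of all genes were). Endothelial markers ran from 785 to 1300 CPM in these HIE animals and from 508 to 859 in the controls, and mural markers from 790 to 1270 and from 495 to 636; their part in the Epas1 value was not tested.

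The other members named above overlapped at P14. Vegfa was at 17.7, 10.7, 14.6 and 15.2 CPM in HIE and at 20.2, 18.4, 19.0 and 16.4 in the controls (-0.36 ± 0.16 on the log2 scale, SE, edgeR adjusted p = 0.492). Slc2a1 was at 332, 329, 232 and 232 CPM in HIE and at 229, 242, 166 and 265 in the controls, with the P4H animals of HIE highest. Hif1a read 203, 182, 161 and 143 CPM in HIE and 158, 163, 150 and 160 in the controls. Ldha was at 147, 146, 110 and 98.7 CPM against 107, 120, 102 and 112, and Pgk1 at 147, 110, 83 and 97 against 99, 120, 79.8 and 91.7. For Hif1a, Ldha and Pgk1 alike, the HIE animals of litter P4H1 stood above those of P6H12. Bnip3 was at 36.1, 32.6, 26.2 and 26.1 CPM in HIE and at 32.3, 33.1, 26.6 and 31.3 in the controls. Ddit4 varied widely, at 39.4, 66.8, 65.7 and 81.3 CPM in HIE and at 29.3, 30.8, 34.1 and 110 in the controls, the last being 1 animal far above its group.

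The hypoxia group showed the same absence of calls. Against the controls no member passed (edgeR, 2 of 20954 genes did, 0.00954%, and DESeq2 called none of the members), with 1 higher and 2 lower at an unadjusted p under 0.05 (2.98% and 6.55% of all genes were) and a median of -0.07 (-0.01 over all genes). All 4 hypoxia animals have names starting with P6H, as do 2 of the 4 controls and 2 of the 4 HIE animals, the others starting with P4H. With P6H animals only, the median was 0.02 for hypoxia over control and -0.06, in place of 0.09, for HIE over hypoxia. Vegfa was at 12.6, 14.6, 16.1 and 15.2 CPM, below all 4 controls (-0.36 ± 0.12 on the log2 scale, SE, edgeR adjusted p = 0.475), and Aldoa at 196, 193, 200 and 166, below control values of 229, 243, 203 and 219 (-0.27 ± 0.09, adjusted p = 0.474). These 2 members were the ones below every control (5.71%, against 2.53% of all genes), and none lay above (2.67% of all genes). Epas1 read 206, 300, 159 and 266 CPM, with 3 of 4 above the controls (0.47 ± 0.18, SE, edgeR adjusted p = 0.5). Mural markers ran from 716 to 1310 CPM in hypoxia, above all controls, and the 9 endothelial markers all had a positive fold change (median 0.34, summed 786 to 1270 CPM), whose part in this value was not tested. Slc2a1 was at 312, 314, 186 and 386 CPM, Hif1a at 161, 171, 155 and 152, Ldha at 117, 128, 121 and 121, Pgk1 at 70.1, 82.4, 108 and 83.5, and Bnip3 at 31.8, 29.4, 34.0 and 35.8. All these overlapped the controls. Ddit4 spread from 47.0 and 53.1 to 132 and 160 CPM within the hypoxia group.

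Between HIE and hypoxia at P14 no member passed (edgeR, 2 of 20949 genes passed, 0.00955%), and none reached an unadjusted p of 0.05. No member separated the 2 groups, while 1.54% of all genes lay wholly above and 0.988% wholly below. The values nearest a gap were Ddit4, at -0.64 ± 0.38, and Pgk1, at 0.33 ± 0.19 (log2 fold change ± SE, edgeR adjusted p = 0.999 each). The HIE and hypoxia comparisons share their 4 controls and are set side by side only. In the wider lists no gene passed in any of the 3 comparisons at P14. The smallest p belonged to Loxl2 (0.62 ± 0.17), Ndufa4l2 (0.71 ± 0.21) and Hk3 (0.34 ± 0.12) upwards and Eno2 (-0.69 ± 0.21), Arnt2 (-0.53 ± 0.20) and Vldlr (-0.43 ± 0.18) downwards for HIE over control. For hypoxia over control they were Angptl4 (0.51 ± 0.17), Ndufa4l2 (0.68 ± 0.27) and Adpgk (0.28 ± 0.12), and Pdk2 (-0.48 ± 0.14), Pfkm (-0.57 ± 0.17) and Slc2a5 (-1.89 ± 0.58). For HIE over hypoxia they were Slc2a5 (3.34 ± 0.87), Pdk2 (0.32 ± 0.16) and Cxcr4 (0.41 ± 0.21), and Wsb1 (-0.33 ± 0.14), Hif3a (-1.20 ± 0.60) and Cited2 (-0.28 ± 0.15), all with an edgeR adjusted p of at least 0.261. Neuronal markers ran from 131 to 160 CPM in HIE and from 177 to 379 in the controls without overlap, beside the lower value of the neuronal enolase Eno2, and their part in it was not tested. Slc2a5 varied widely within groups, from 13.1 to 194 CPM in HIE, from 5.78 to 15.0 in hypoxia and from 7.39 to 75.0 in the controls, and all 3 overlapped.

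**Figure D4:**
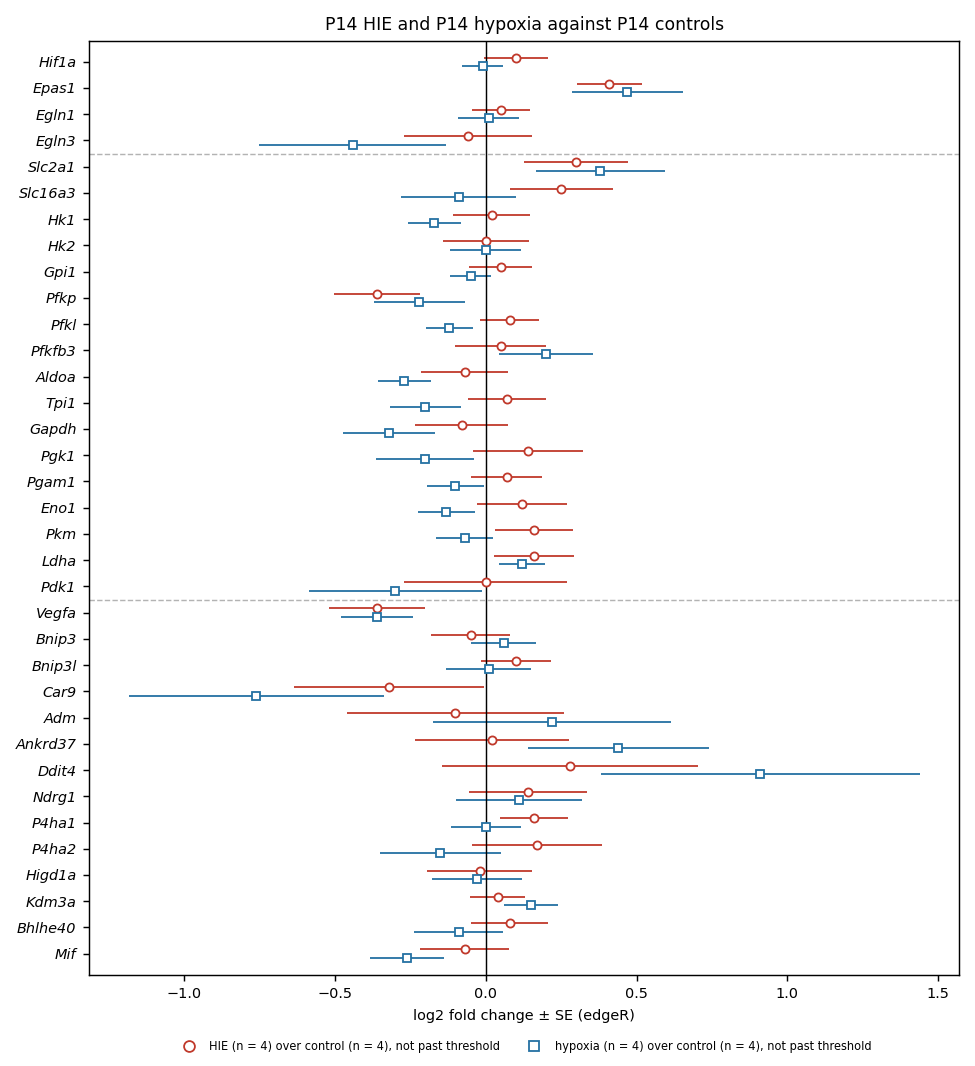
Log2 fold change ± SE (edgeR) of the 35 members in P14 HIE (circles) and P14 hypoxia (squares), 4 animals each, over the same 4 P14 controls, grouped by role between the dashed lines. No symbol is filled, as none passed an adjusted p of 0.05, and Epas1 is at 0.41 and 0.47.

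Whether the HIE effect differed between P7 and P14 was tested directly as an interaction over 16 animals. No member passed (edgeR, 1 of 24694 genes did, 0.00405%), with 1 higher and 6 lower at an unadjusted p under 0.05 (2.86% and 17.1%, against 3.59% and 10.3% of all genes). Epas1 had the smallest p of the members, -1.46 ± 0.31 on the log2 scale (SE, edgeR adjusted p = 0.11). DESeq2 called it, and 674 of 24694 genes (2.73%). Every HIE animal was below the controls at P7 and above them at P14 for Epas1. The 9 endothelial markers had a median of -1.42 and the 6 mural markers of -1.6 in the same contrast, all 15 at an unadjusted p under 0.05. The 8 choroid plexus markers had a median of -1.86, all 8 likewise under 0.05. The part of these markers in the Epas1 value was not tested. Epas1 was followed by Bhlhe40 (-1.08 ± 0.33) and Slc2a1 (-1.07 ± 0.33), both with an edgeR adjusted p of 0.175. In the wider lists Slc16a7 (1.13 ± 0.47), Pdgfb (0.63 ± 0.27) and Pim1 (1.02 ± 0.45) led upwards and Loxl2 (-1.86 ± 0.41), Ndufa4l2 (-1.84 ± 0.44) and Tfrc (-1.21 ± 0.35) downwards, none passing. The P7 side of this contrast includes the P6H63 controls. Without P6H55 control replicate 3 the count of members went from 0 to 4 and that of all genes from 1 to 1193 (4.69%). Without replicate 4 of the same litter, the count of all genes was 415 (1.64%).

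The clearest contrast in these genes was between the P7 and P14 tables. Comparing HIE with HIE, 25 of 35 members passed by edgeR (71.4%, against 46.0% of 22580 genes). Of these, 19 were higher at P7 and 6 lower (54.3% and 17.1% of the members, against 23.2% and 22.8% of all genes). The median was 0.34 (-0.02 over all genes). Glycolysis genes gave 12 higher and 2 lower of 17, and the HIF subunits and sensors 3 higher of 4. The other targets gave 4 higher and 4 lower of 14 (28.6% each way), near the shares of all genes. Ldha was at 202 to 275 CPM at P7 and 98.7 to 147 at P14 (log2 fold change 0.86 ± 0.15, SE, edgeR adjusted p = 0.00103), and Pgam1 at 167 to 220 and 85.7 to 122 (0.88 ± 0.12, adjusted p = 0.000306). Neither overlapped between ages. Eno1 (0.90 ± 0.15), Tpi1 (0.75 ± 0.14), Gpi1 (0.73 ± 0.10), Pkm (0.70 ± 0.14), Gapdh (0.97 ± 0.20), Aldoa (0.64 ± 0.15) and Pgk1 (0.55 ± 0.16) were likewise higher at P7. The regulator Pfkfb3 (1.28 ± 0.15) and the lactate exporter Slc16a3 (1.23 ± 0.18) had the largest fold changes of the pathway, while Hk2 was higher by 0.34 ± 0.11. The glucose transporter Slc2a1 (-0.73 ± 0.14) and the kinase Pdk1 (-0.49 ± 0.18) were the 2 lower ones.

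Among the HIF subunits and sensors, Egln3 was at 7.46 to 10.4 CPM at P7 and 1.97 to 2.73 at P14 in HIE (log2 fold change 1.89 ± 0.18, SE, edgeR adjusted p = 2.69e-05), the largest difference of any member. Egln1 (0.41 ± 0.08) and Hif1a (0.30 ± 0.11) passed as well, and Epas1 did not (0.17 ± 0.10). Of the other targets, Mif (1.5 ± 0.15), Car9 (1.43 ± 0.25), Bnip3 (0.46 ± 0.12) and Bhlhe40 (0.41 ± 0.10) were higher at P7, and Ddit4 (-1.75 ± 0.20), P4ha1 (-0.68 ± 0.10), Ndrg1 (-0.54 ± 0.17) and Higd1a (-0.48 ± 0.14) lower. Ddit4 ran from 16.7 to 22.9 CPM at P7 and from 39.4 to 81.3 at P14 without overlap. Across the members, 17 lay wholly above and 4 wholly below (48.6% and 11.4%, against 24.0% and 19.9% of all genes). The wider lists gave 7 higher and 1 lower of 13 regulators, 11 and 8 of 27 glycolysis genes, and 9 and 7 of 29 targets. In either direction 61.5%, 70.4% and 55.2% were called, against 46.0% of all genes. Cited2 (1.67 ± 0.12), Hmox1 (1.44 ± 0.12) and Zfp395 (1.70 ± 0.19) led upwards, with Plod1 (-0.67 ± 0.11) and Kdm4c (-0.40 ± 0.07) among the lower genes.

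Control animals were compared between the tables in the same way. All 4 P7 controls lay above all 4 P14 controls for 14 members (40%, against 20.2% of all genes), 8 of them among the 17 glycolysis genes, and 1 member, P4ha1, lay below (2.86%, against 16.7%). In a test added after these levels had been seen, the 2 P6H55 controls were set against the 4 P14 controls. By edgeR 16 members passed (45.7%, against 31.2% of 22151 genes). Of these, 15 were higher and P4ha1 lower (42.9% and 2.86%, against 16.2% and 15% of all genes). Leaving out either P6H55 control left 1 animal on that side. Without replicate 3 the share of members called was then near that of all genes. The glycolysis genes gave 9 higher of 17, among them Ldha (0.80 ± 0.12), Pgam1 (0.64 ± 0.13), Pkm (0.63 ± 0.12) and Eno1 (0.62 ± 0.14), and Egln3 (1.81 ± 0.20) and Mif (1.22 ± 0.15) again led (log2 fold change ± SE, edgeR adjusted p from 0.000856 to 0.0147). Of the wider lists, Cited2 (1.62 ± 0.09), Zfp395 (1.74 ± 0.15) and Angptl4 (1.35 ± 0.16) led upwards, with Plod1 (-0.64 ± 0.12) and Vhl (-0.56 ± 0.11) among the lower genes.

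Other measures moved between the tables as well. The summed immediate early genes were at 17700 to 20000 CPM in P7 HIE and 5550 to 10900 in P14 HIE, microglial markers at 17100 to 19400 and 19600 to 30400, endothelial markers at 627 to 838 and 785 to 1300 (6 of 9 called lower at P7), mural markers at 467 to 615 and 790 to 1270, oligodendrocyte-lineage markers at 380 to 523 and 978 to 2930, and erythroid markers at 21.1 to 45.0 and 131 to 414. Between the P6H55 and P14 controls, microglial markers were at 13300 to 15100 and 17500 to 23700 CPM, immediate early genes at 16500 to 17200 and 6830 to 8920, endothelial markers at 894 and 508 to 859, and mural markers at 626 to 650 and 495 to 636. The part of these measures in the members' differences was not tested.

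**Figure D5:**
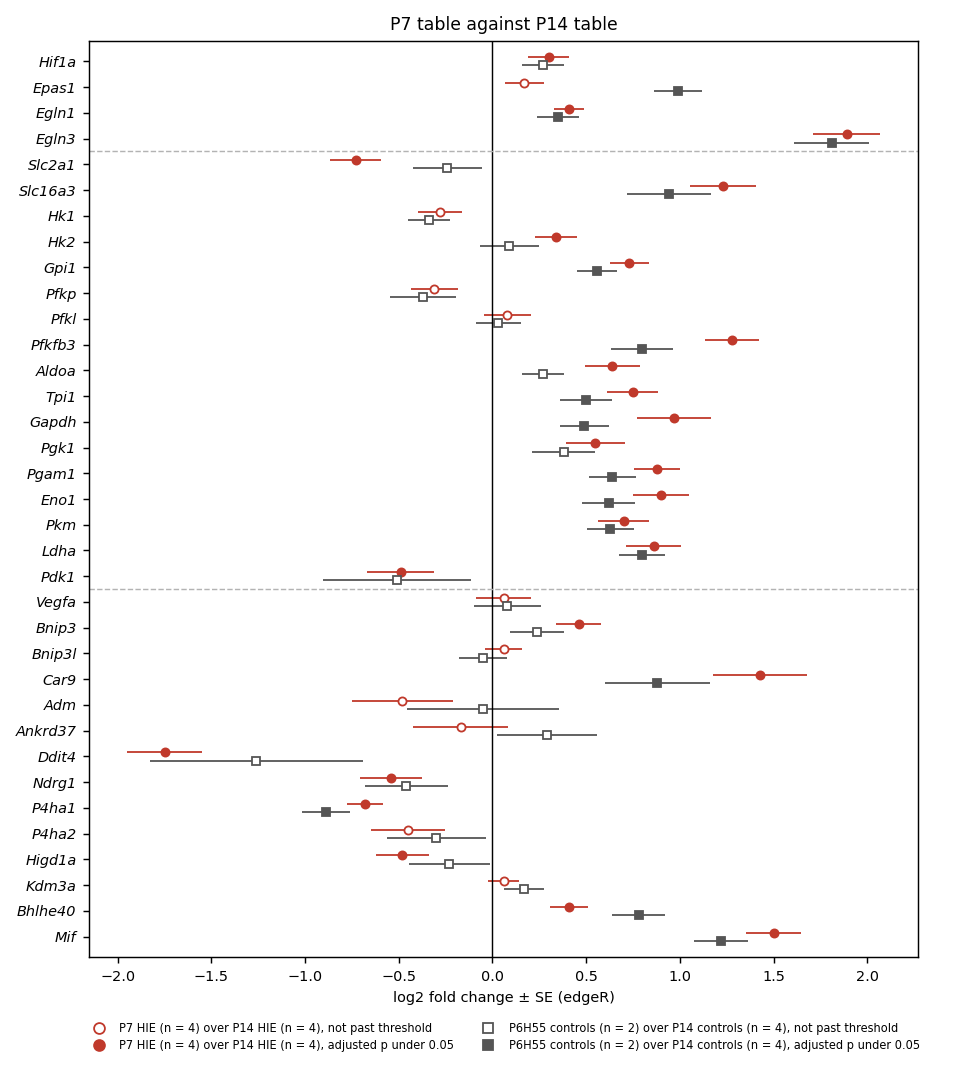
Log2 fold change ± SE (edgeR) of the 35 members for P7 HIE over P14 HIE (circles, 4 animals each) and for the 2 P6H55 controls over the 4 P14 controls (squares), grouped by role between the dashed lines. Filled symbols passed an adjusted p of 0.05 (25 and 16 members), and most glycolysis genes lie right of 0 in both.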

How the data were processed

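RNA of CD11b+ brain cells was sequenced as stranded total RNA. Per the labels and the study's methods, the authors aligned reads to GRCm39 with STAR and counted genes with RSEM, and the values deposited are expected counts per gene and library, not normalized, in 1 table for P7 and 1 for P14. Between 84.2% and 88.0% of the values per library were exactly whole, zeros included, and all values were rounded. Gene names were matched by Ensembl ID to GENCODE M39 (56017 of 56691 IDs). The 2 repeat libraries of an animal differed by a mean chi-square per gene of 5.24 and 9.16, against 25.5 to 85.1 between animals, and were summed.

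Each comparison was fitted on its own groups with edgeR 4.0.16 in R 4.3.3. Settings were TMM factors, filterByExpr, the quasi-likelihood test, Benjamini-Hochberg adjustment over all genes tested and a threshold of 0.05. The quasi-likelihood fit used its legacy option, and the fit without that option was not run. The SE printed is not an output of edgeR. It is the absolute log2 fold change divided by the square root of the F statistic of the quasi-likelihood test. All 35 members passed the filter in every comparison. The CPM printed are scaled by TMM factors over all 20 animals (1.25 and 1.19 in the P6H63 controls, 0.889 to 1.05 in the others). Alternatives were DESeq2 1.42.0, other scaling, no filter, each animal left out, and subsets by sex label and name prefix. The scripts were tested on simulated data. No separate cultures or pools are described, and p-values measure the spread between these animals. Animals that share a name prefix entered each fit as independent, so the p-values may understate the spread between litters. Depth limits no member, and counts cover counting error only.

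The members, wider lists and markers were chosen with earlier results of these data known, so no list has a p of its own. Values for every animal are given for Hif1a, Epas1, Vegfa, Slc2a1, Ldha, Pgk1, Bnip3 and Ddit4 and for the members past the threshold in a treatment comparison (the 8 with the smallest p). Of the wider lists, the 3 genes with the smallest p in each direction are named, except 1 gene that is not reported here. Promoter sequence is from the GRCm39 genome at the starts of canonical transcripts in GENCODE, which can differ from the outermost start of the gene. Of 12 microglial markers, 11 were matched.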

Additional observations from a re-analysis of the deposited data

Results flagged for a closer look

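In 175 sets of 4 animals (a member in a group), 10 held 1 animal farther from the rest than Dixon's 95% limit, where chance gives about 1 in 20, or 8.75. At P14 hypoxia the same animal, a P6H9 female (replicate 3), was lowest for Aldoa (166 CPM) and highest for Ndrg1 (39 CPM). Among P14 HIE animals, replicate 1 was highest for Car9 (4.37 CPM) and lowest for Kdm3a (89 CPM). In the P14 controls, replicate 2 was highest for Ddit4 (110 CPM), replicate 4 lowest for Epas1 (136 CPM) and Slc16a3 (12.5 CPM), and replicate 1 lowest for Kdm3a (85.2 CPM). Of the P7 controls, replicate 3 was highest for Gpi1 (264 CPM) and replicate 4 lowest for Pgam1 (137 CPM), both from litter P6H55.

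The difference of Epas1 between HIE and control had opposite signs at the 2 ages. Every HIE animal was below all controls at P7 and above all controls at P14. Neither difference passed edgeR's test, litter and treatment cannot be told apart, and the P7 gap was smaller against P6H55 than against P6H63. The P7 value minus the P14 value was -1.46 on the log2 scale and did not pass edgeR's test over all genes either (adjusted p = 0.11). Endothelial and mural markers changed sign likewise, with medians of -0.98 and -1 at P7 and 0.47 and 0.55 at P14, and differences of -1.42 and -1.6 with all 15 genes at an unadjusted p under 0.05. Choroid plexus markers changed sign too, with medians of -1.45 at P7 and 0.37 at P14. Their difference had a median of -1.86, with all 8 genes at an unadjusted p under 0.05. The part of these markers in the Epas1 values was not tested.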

How the results depend on the processing

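The calls against the P6H63 litter (22 members, 21 to 23 with an animal left out) and between HIE at P7 and P14 (25, 20 to 25) were within 1.5 times of their counts under every alternative run. Elsewhere the count changed with the tool and with the control animal left out. DESeq2 called 9 members for P7 HIE over control, 3 over P6H55, 1 for P14 HIE over control and 1 for the interaction, against 0 each by edgeR. With each animal left out in turn, edgeR's counts ran from 0 to 14 for P7 HIE over control, 0 to 7 over P6H55, 0 to 4 for the interaction and 6 to 18 for P6H55 over P14 controls, the extremes 14, 7, 4 and 6 all coming without P7 control replicate 3. The cause was not tested.

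Over all genes, DESeq2 called 3024, 978, 494, 163, 15 and 674 for P7 HIE over control, over P6H55, P14 HIE over control, hypoxia over control, HIE over hypoxia and the interaction, against edgeR's 15, 26, 1, 2, 2 and 1. The DESeq2 counts were 13.4%, 4.2%, 2.36%, 0.778%, 0.0716% and 2.73% of the genes tested. Without a filter on low counts edgeR called 153 over P6H55, and without P7 control replicate 3 it called 5589 for P7 HIE over control.

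Scaling by total count moved the members' median from 0.12 to -0.10 for P7 HIE over control, from 0.01 to -0.37 over P6H63 and from -0.01 to -0.17 for the interaction, while the median of all genes moved from -0.08 to -0.28, -0.02 to -0.39 and -0.04 to -0.20. Over P6H63 it turned Bnip3l to -0.22, Gpi1 to -0.01, Kdm3a to -0.13 and Pgk1 to -0.37. With P6H animals only, the median became 0.02 for P14 hypoxia over control and -0.06 for HIE over hypoxia. With an animal left out, the median ran from 0.05 to 0.30 over P6H55 and from 0.25 to 0.41 for P6H55 over P14 controls. No paired analysis was possible because replicate numbers only name animals in order. The name prefix P4H or P6H could enter as a term for P14 HIE over control, where edgeR then called 0 members and 2 of all genes.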
